A study of Mus musculus with 4 samples.

Results

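Cytosolic ribosomal protein genes were followed in the posterior part of mouse embryos at embryonic day 9.5, in 2 RNA samples of Jmjd3-/- embryos and 2 of wild-type embryos. The members were all genes whose mouse symbol begins with Rpl or Rps and a digit, with Rplp0, Rplp1, Rplp2 and Rpsa, and without Rps6k genes and names marked as pseudogenes. The rule took no measured value. It found 84 of the 18220 genes that the array's probes name, through 121 probes. Of these, 46 encode proteins of the large ribosomal subunit, 30 of the small subunit and 7 are paralogs, and the last, Rps19bp1, meets the name rule but encodes a protein that binds Rps19 and not a ribosomal protein. The paralog Rps4l is annotated as a pseudogene. Coding genes that meet the rule but have no probe under their name, 6 in all, were not analysed here.

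The ribosome joins a small subunit, which reads the mRNA, to a large subunit, which makes the peptide bond. Each subunit needs every one of its proteins in matched amounts, and the genes that encode them are scattered over the genome and are among the most strongly transcribed of any growing cell. Their mRNAs begin with a stretch of pyrimidines, the terminal oligopyrimidine (TOP) tract, through which growth signals control their translation together. A shortage of single members has uneven effects in embryos: loss of Rpl38 in the mouse alters the axial skeleton through the translation of Hox mRNAs, and lowered RPS19, RPL5 or RPL11 in people causes Diamond-Blackfan anaemia, in which p53 is active.

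The product of Jmjd3, whose current symbol is Kdm6b, is a histone H3 demethylase that takes off a repressive mark. Both genotypes came from crosses of heterozygous Jmjd3 mice, with somites counted and the time since mating used for staging. The Jmjd3-/- samples are replicates 1 and 9 and the wild-type samples replicates 3 and 4, as numbered in their labels. The deleted part of Jmjd3, the age of the parents and whether a sample is 1 embryo are not given in the sources used here. P-values therefore reflect only how far these particular samples lie apart, which may be technical. Cy3-labelled RNA was read on 1-colour Agilent arrays, 1 array per sample and all on 1 slide. Levels are log2 of the processed signal less the array's 75th percentile, so that a level of 0 is the 75th percentile of all probes. The probe with the highest mean signal stood for each gene. Pairs of levels are given in the order replicate 1, replicate 9 for Jmjd3-/- and replicate 3, replicate 4 for wild-type.

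The 4 arrays had 59.8% to 63.0% of 41174 probes well above background, and 0 were saturated. Kdm6b had levels of 0.35 and 0.11 in Jmjd3-/- and 2.15 and 2.23 in wild-type, a log2 difference of −1.96 (SE 0.12; adjusted p = 0.149, limma). With 1 array left out its difference ran from −2.08 to −1.84. Tail bud markers, which define the labelled end of the embryo, were above background on both arrays of a genotype or more for 6 of 6 genes. Their summed level on the linear scale, in multiples of the 75th percentile, was 26.9 and 16.2 in Jmjd3-/- and 9.21 and 10.3 in wild-type. The summed level of 10 erythroid markers, all measured, was 318 and 448 in Jmjd3-/- and 477 and 604 in wild-type. Markers of several other cell types had lower sums in both Jmjd3-/- arrays than in both wild-type arrays. The sums were 0.875 and 1.52 against 3.08 and 3.00 for 5 neuron markers, 1.12 and 1.74 against 5.42 and 3.1 for 4 cardiac markers, and 7.07 and 5.92 against 18.4 and 12.7 for 4 visceral endoderm markers. They were 0.73 and 0.834 against 1.48 and 2.73 for 4 of 5 macrophage markers, and 1.87 and 2.30 against 3.40 and 3.35 for 4 limb and lateral plate markers. Smaller shifts were seen in 4 endothelial markers (9.64 and 9.05 against 11.4 and 11.2) and 5 somite markers (39.2 and 35.5 against 33.1 and 33.8). The somite sum was higher in Jmjd3-/-, but only 1 of the 5 markers was. The median log2 difference of the somite markers was −0.059. The part of these cell types in the values below was not tested. In bulk tissue, fewer cells of a type and less RNA per cell cannot be told apart.

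Promoter sequences were looked up to show what the members share apart from their names. RefSeq's table for GRCm38.p6 held 76 promoters for 64 of the 84 members. In the sense strand, from 10 bases before to 30 bases after the annotated start, an unbroken run of at least 7 C or T bases stood in 51.3% of the members' promoters and in 22.6% of all 32851 promoters of the table. The letters CTTTCC, which overlap such a run, stood in that window in 14.5% of the members' promoters and in 1.74% of all. The windows below run from 20 bases before to 30 bases after the annotated start, 5′ to 3′, with the longest run of C and T between 10 bases before and 30 bases after the start in capitals. They were chosen to show members that the text returns to.
Rpl38 (chr11:114668560-114668609, plus strand): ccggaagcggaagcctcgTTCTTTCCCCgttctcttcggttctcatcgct
Rpl18 (chr7:45718051-45718100, plus strand): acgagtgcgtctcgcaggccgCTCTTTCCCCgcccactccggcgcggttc
Rps27 (chr3:90213619-90213668, minus strand): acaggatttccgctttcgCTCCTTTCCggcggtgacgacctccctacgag
Rpl22l1 (chr3:28805488-28805537, plus strand): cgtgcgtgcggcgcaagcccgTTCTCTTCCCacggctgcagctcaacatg
Rpl11 (chr4:136053364-136053413, minus strand): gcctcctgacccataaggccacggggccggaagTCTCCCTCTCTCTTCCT
Rps26 (chr10:128626477-128626526, minus strand): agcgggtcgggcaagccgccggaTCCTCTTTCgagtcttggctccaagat
Rpl7l1 (chr17:46782627-46782676, minus strand): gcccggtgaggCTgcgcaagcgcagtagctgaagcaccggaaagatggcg
In Rpl38, Rpl18, Rps27, Rpl22l1 and Rps26 the run lies at or within a few bases of the annotated start. In Rpl11 it starts further downstream and in the paralog Rpl7l1 the longest run in that stretch is 2 bases. Short runs were not confined to paralogs. In Rpl5 and Rpl10, not shown, the longest run was 3 bases.

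Over both strands of the whole promoter window, CCGGAAG, the core that Ets factors bind, stood in 35.5% of the members' promoters against 8.86% of all. ATGGCG, which is part of the Yy1 motif, stood in 30.3% against 8.93%. CTTTCC stood in 38 of the 76 against 26.6% of all. The TATA box letters TATAAA stood in 9.21% against 13.6%. A match of letters is no site. The 37 tested members with a run of 7 or more bases had a median log2 difference between genotypes of −0.016, and the 26 with shorter runs of −0.027.

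Jmjd3-/- and wild-type arrays were compared to ask how transcript levels depend on Jmjd3 at this stage. Ribosomal protein transcripts differed little. Of 83 members tested, 0 passed an adjusted p under 0.05 (limma, Benjamini-Hochberg over all genes), where 5 of 13581 genes did, which is 0.0368%. Of those 5 genes, 3 were higher in Jmjd3-/- (0.0221%) and 2 were lower (0.0147%), and none is a member. An unadjusted p under 0.05 was reached by 11.1% of all genes tested, but by only 2.35% of 724 other genes of like brightness (limma). That set is defined in the next paragraph. Among the members the count at this threshold was again 0 (limma). Without Jmjd3-/- replicate 9 that count was 11 members, where 29.9% of all genes passed, and without Jmjd3-/- replicate 1 it was 1, where 14.3% passed. The smallest adjusted p of a member was 0.565, that of Rps26 (limma). The 1 member that was not tested was Rpl3l, the paralog of Rpl3 known from heart and skeletal muscle, which was not well above background on any of the 4 arrays.

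The differences were small in size. The count of 0 past the adjusted threshold does not set the members apart, as only 0.0368% of all genes tested passed it. The log2 differences ran from −0.23 for Rpl21 to 0.22 for Rpl39l, with a median of −0.018 and quartiles of −0.066 and 0.018. Over all genes tested the median was −0.012 and the quartiles −0.13 and 0.10. A difference was positive in 28 members and negative in 55, and with quantile normalisation positive in 38 and negative in 43. It was positive in 63 of 83 without Jmjd3-/- replicate 1 and in 11 of 83 without replicate 9. The median absolute difference was 0.036 in the members, 0.057 in 724 other genes with mean levels between the members' 10th and 90th percentile, and 0.12 in all genes tested. The 95% interval of the difference lay within 1.5-fold in both directions for 79 of 83 members, 95.2%. The share was 93.0% in genes of like brightness and 66.0% in all genes tested. The 4 members whose interval reached past 1.5-fold were Rpl21, Rps15, Rpl39l and the pseudogene Rps4l. The members' median interval was 0.24 in log2 to either side. With 2 arrays per genotype, a smaller shift in any 1 gene could go unseen even before adjustment over all genes.

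**Figure D1:**
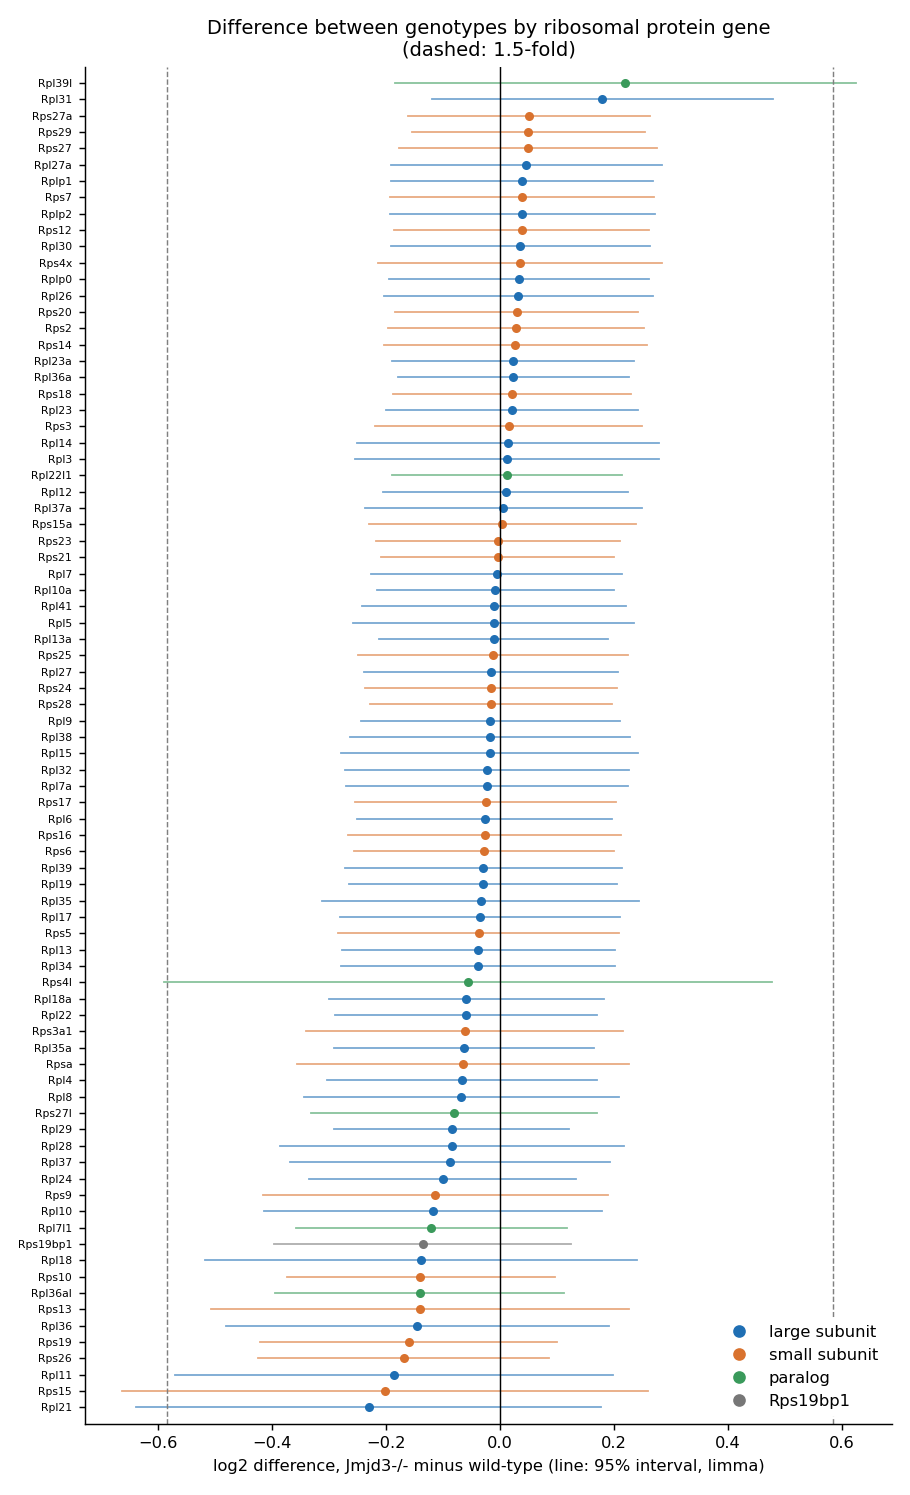
Log2 difference between genotypes (Jmjd3-/- minus wild-type, x axis) for 82 of the 83 tested members, sorted by size, with points coloured by class and lines for the 95% interval from limma. All 82 intervals shown hold 0, and 78 lie within the dashed lines at 1.5-fold.

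The genotypes overlapped in most members, as in most genes. Both Jmjd3-/- arrays lay above both wild-type arrays in 5 members, 6.02%, against 23.0% of all genes tested and 17.4% of genes of like brightness. Both lay below in 13 members, 15.7%, against 23.7% and 19.1%. With quantile normalisation both lay above in 9 of 83 members, against 3109 of 13581 genes tested. Both lay below in 18 members with that normalisation, 21.7%, against 25.2% of all genes. The 13 lower ones included Rpl10, Rpl11, Rpl21, Rpl24, Rpl29, Rpl36al, Rpl7l1, Rps10, Rps19, Rps26, Rps27l and Rps19bp1, and the 5 higher ones Rpl22l1, Rpl31, Rpl36a, Rps27a and Rps29, listed after their values were seen. A member whose arrays differ by a few hundredths can be in either count without a difference of any size, as with Rpl22l1, whose 4 levels spanned from 6.95 to 6.97.

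**Figure D2:**
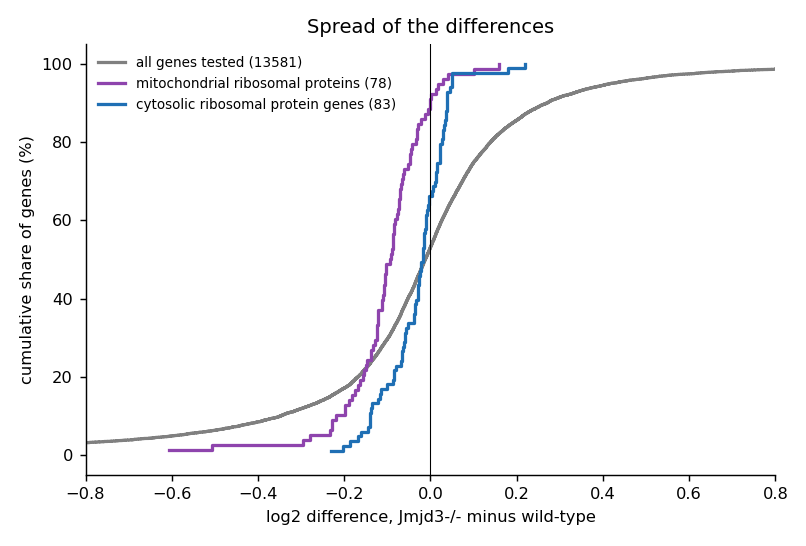
Cumulative share of genes (y axis, percent) by log2 difference, Jmjd3-/- minus wild-type (x axis), for the 83 cytosolic ribosomal protein genes, 78 mitochondrial ribosomal protein genes and all 13581 genes tested, of which 631 lie outside the axes at 0.8 on either side. The cytosolic members rise steeply around their median of −0.018, and the mitochondrial ones around −0.092.

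By subunit, the median log2 difference was −0.020 over the 46 large subunit genes and −0.014 over the 30 small subunit genes. In the large subunit 32 of 46 had a negative difference and in the small subunit 18 of 30, where 53.1% of all genes tested did. These signs depended on 1 array. Without Jmjd3-/- replicate 1 the difference was positive in 36 of 46 and 24 of 30, and without Jmjd3-/- replicate 9 it was negative in 42 of 46 and 25 of 30. With quantile normalisation, 23 large subunit genes were negative and 22 positive, and 15 and 14 in the small subunit.

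The largest negative differences in the large subunit were in Rpl21, Rpl11 and Rpl36. Rpl21 had levels of 1.999 and 2.33 in Jmjd3-/- and 2.44 and 2.36 in wild-type. Both Jmjd3-/- levels were below both wild-type levels, by little for replicate 9, and the difference was −0.23 (SE 0.14; adjusted p = 0.611, limma). Its other probe was dimmer and had a difference of 0.038, so the direction rests on 1 probe. Rpl11, whose protein binds Mdm2 when ribosome assembly fails, had 8.35 and 8.03 in Jmjd3-/- and 8.41 and 8.35 in wild-type, in the same order. Here replicate 9 was the low array and replicate 1 lay next to wild-type replicate 4, a pattern unlike that of most members, with a difference of −0.19 (SE 0.14; adjusted p = 0.650, limma). Rpl36 had 6.63 and 6.89 in Jmjd3-/- and 6.88 and 6.93 in wild-type, so the groups overlapped and replicate 1 was the low array (difference −0.15, SE 0.12; adjusted p = 0.678, limma).

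Rpl31, which sits near the exit of the peptide tunnel, had the largest positive difference of the large subunit. Its levels were 3.02 and 2.92 in Jmjd3-/- and 2.89 and 2.70 in wild-type, a difference of 0.18 (SE 0.11; adjusted p = 0.594, limma). Its groups did not overlap, but its dimmer probe had a difference of −0.13, so its probes disagreed in sign. Rpl27a followed with 5.01 and 5.07 against 5.05 and 4.94, which overlap (difference 0.046, SE 0.084).

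In the small subunit, Rps15, Rps26 and Rps19 had the largest negative differences. Rps15 had 4.34 in Jmjd3-/- replicate 1, while replicate 9 and both wild-type arrays were at 4.74, so its difference of −0.20 (SE 0.16) came from 1 array. Rps26, a protein at the mRNA exit channel, had 6.56 and 6.70 in Jmjd3-/- and 6.83 and 6.77 in wild-type, with no overlap (difference −0.17, SE 0.090; adjusted p = 0.565, limma). Rps19, which is needed to mature the small subunit, had 3.30 and 3.46 in Jmjd3-/- against 3.54 and 3.53, again with no overlap (difference −0.16, SE 0.092; adjusted p = 0.588, limma). The positive end of the small subunit was flatter. Rps27a, made as a fusion with ubiquitin, differed by 0.051 (SE 0.075), Rps29 by 0.050 (SE 0.072) and Rps27 by 0.049 (SE 0.080).

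Rpl38, singled out for its known part in axial patterning, had levels of 8.04 and 8.18 in Jmjd3-/- and of 8.13 and 8.13 in wild-type. The wild-type arrays lay between the Jmjd3-/- arrays. The difference was −0.018 (SE 0.087; adjusted p = 0.957, limma), with a 95% interval from −0.26 to 0.23. Rpl5, which acts with Rpl11 in the control of p53, had 8.39 and 8.48 against 8.50 and 8.40 and a difference of −0.011 (SE 0.087).

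The 5 brightest members, Rpl7a, Rps18, Rps23, Rps2 and Rplp1, had levels above 9 on all 4 arrays. They include Rplp1, part of the stalk that recruits elongation factors, and Rps2 and Rps23, which lie near the decoding centre of the small subunit. Their differences were −0.023 (SE 0.087) for Rpl7a, 0.021 (SE 0.074) for Rps18, −0.003 (SE 0.076) for Rps23, 0.028 (SE 0.079) for Rps2 and 0.039 (SE 0.081) for Rplp1. In each the genotypes overlapped. Rps19bp1, the member that is no ribosomal protein, had 3.81 and 3.97 against 4.06 and 4.00, with no overlap (difference −0.14, SE 0.092; adjusted p = 0.633, limma).

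Paralogs can replace their parent protein in some tissues, and their levels are given beside their parents', with no comparison of level between different probes. Rpl22, whose protein is known to repress Rpl22l1, had 6.70 and 6.81 in Jmjd3-/- and 6.82 and 6.80 in wild-type (difference −0.060, SE 0.081), and its dimmer probe a difference of 0.063. Rpl22l1 differed by 0.012 (SE 0.071), so the pair showed no opposite shift beyond these errors. Rps27l, which p53 induces, had 6.03 and 6.18 against 6.19 and 6.19 (difference −0.081, SE 0.088), beside its parent Rps27 given above. Rpl36al differed by −0.14 (SE 0.089) and its parent Rpl36a by 0.023 (SE 0.071), with intervals from −0.40 to 0.11 and from −0.18 to 0.23 that overlap. Rpl7l1 had 3.33 and 3.45 against 3.52 and 3.50 (difference −0.12, SE 0.084) and Rpl7 differed by −0.006 (SE 0.078). Rpl39l, known from testis and stem cells, had −4.67 and −4.38 in Jmjd3-/- and −4.65 and −4.83 in wild-type. Its groups overlapped, 1 of its 2 probes was above background, and the difference was 0.22 (SE 0.14; adjusted p = 0.623, limma), beside −0.029 (SE 0.086) for Rpl39. With another background correction, normexp, the difference of Rpl39l was 0.017. Rps4l had the widest gap between arrays of 1 genotype, with 4.81 and 5.28 in Jmjd3-/- against 5.15 and 5.06, while Rps4x differed by 0.035 (SE 0.088). Rpl10, the parent of a paralog with no probe here, differed by −0.12 (SE 0.11), and Rpl3 by 0.013 (SE 0.094).

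Where a gene had more than 1 probe above background, the probes bore on the same question separately. This held for 30 members with 66 probes. The differences of a gene's probes spanned a median of 0.058 and at most 0.42, in Rps15a, whose dim probe differed by 0.43 and whose bright probe by 0.004. The sign differed between probes in 12 of the 30. Ribosomal protein genes have many processed pseudogenes, and probe sequences were not used here, so cross-hybridisation was not tested.

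Arrays of 1 genotype were then set against each other. The 2 wild-type arrays were a median of 0.038 apart in the members, without regard to sign, and the 2 Jmjd3-/- arrays 0.11 apart. Over all genes tested these values were 0.076 and 0.16, and over the 724 genes of like brightness 0.042 and 0.12. The members were thus about as far apart as other bright genes.

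The Jmjd3-/- gap had 1 direction. Replicate 1 lay below replicate 9 in 76 of 83 members, 91.6%, against 59.6% of all genes tested and 82.3% of genes of like brightness. The share was 96.2% in mitochondrial ribosomal proteins and 94.7% in translation factors and other TOP genes, 2 lists described below. Replicate 1 was the lowest of the 4 arrays in 58 members, 69.9%, against 63.3% of genes of like brightness and 43.1% of all genes tested. Replicate 9 was the highest in 50 members, 60.2%, against 46.3% and 27.2%. Against the wild-type mean the members' median was −0.065 in replicate 1 and 0.029 in replicate 9. In 52 of 83 members, 62.7%, the wild-type mean lay between the Jmjd3-/- arrays in this way, with replicate 1 below it and replicate 9 above it, against 23.4% of all genes tested. The 7 members that went the other way, with replicate 1 above replicate 9, included Rpl11, Rpl13a, Rpl29, Rpl30, Rpl31 and Rpl36a, named after their values were seen. The widest gaps were in Rps4l (0.47), Rps15 (0.40), Rpl21 (0.34), Rpl11 (−0.31) and Rpl18 (0.31), given as replicate 9 minus replicate 1.

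**Figure D3:**
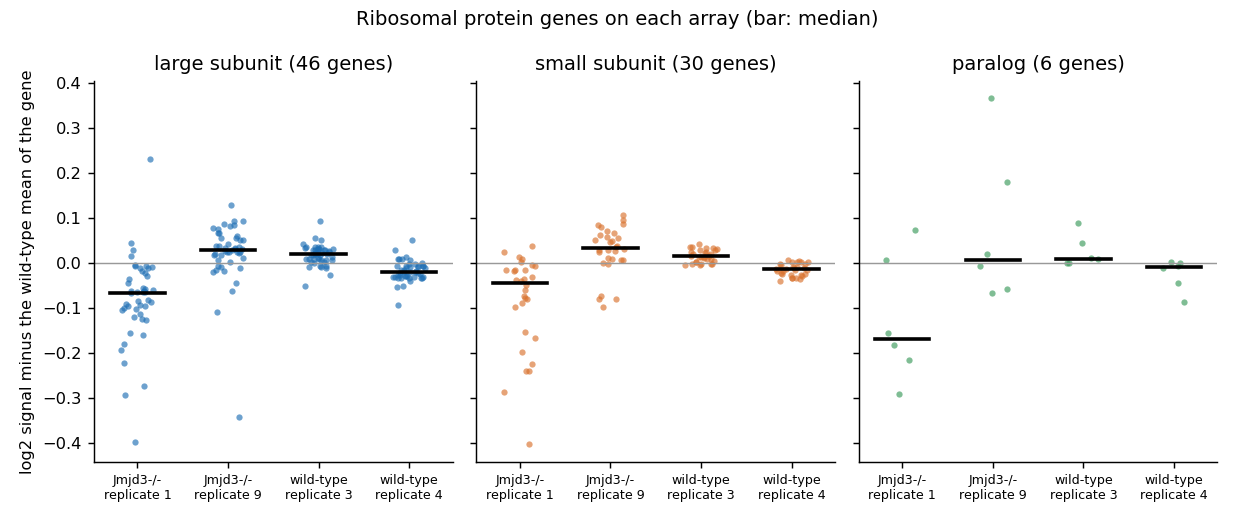
Log2 level of each member less the mean of its 2 wild-type levels (y axis) on each of the 4 arrays (x axis), for 46 large subunit genes, 30 small subunit genes and 6 tested paralogs; each point is a gene and each bar the median. Jmjd3-/- replicate 1 has its median below 0 and replicate 9 above 0 in all 3 classes.

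The gap depended on how arrays were scaled. The members' median of replicate 9 minus replicate 1 was 0.11 after scaling to the 75th percentile, 0.20 after scaling to the median of each array and 0.000 after quantile normalisation, which gives all arrays the same distribution of signals. Over all genes tested the same medians were 0.052, 0.14 and 0.041. With quantile normalisation replicate 1 was below replicate 9 in 38 of 83 members. The members' signals added up to between 11.9% and 12.1% of the summed processed signal of all probes on each of the 4 arrays, with the lowest share in Jmjd3-/- replicate 1.

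Members sit at the bright end of the array, where the scanner software replaces the reading by that of a scan at lower gain, scaled up. This was so on all 4 arrays for 72 of the 83 members' probes, while 2.06% to 2.21% of all probes were read in this way on an array. In those 72, replicate 1 lay a median of −0.076 from the mean of the other arrays, beside −0.079 in 489 other genes read the same way. In the 10 members read at the normal gain throughout it lay −0.18 from it, beside −0.037 in 12894 other genes. The part of the scan gain in these values was not tested.

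**Figure D4:**
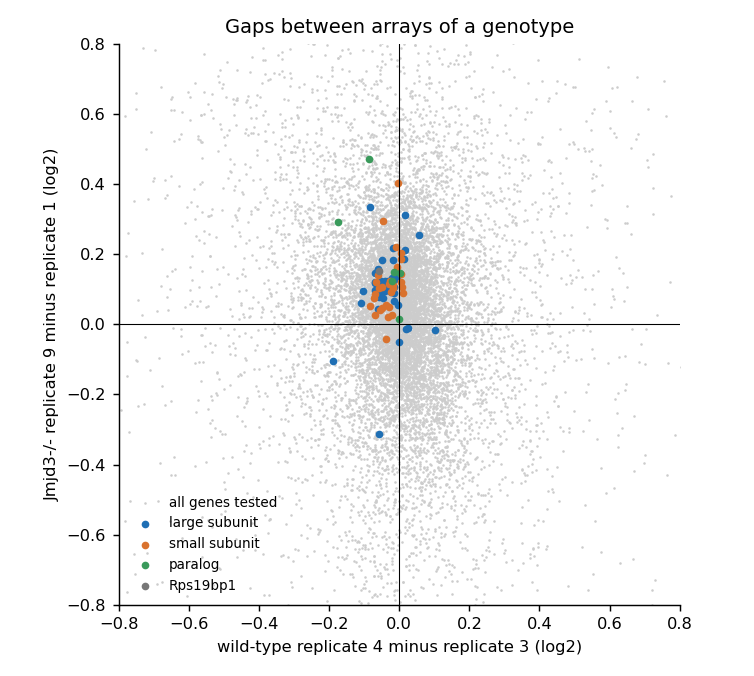
Gap between the wild-type arrays (replicate 4 minus 3, x axis, log2) and between the Jmjd3-/- arrays (replicate 9 minus 1, y axis, log2) for members, coloured by class, and for all genes tested in grey, of which 932 lie outside the axes. Members gather above the horizontal line, with 76 of 83 lower in Jmjd3-/- replicate 1 than in replicate 9.

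Other genes of the translation machinery were read from the same fit. Mitochondrial ribosomal proteins, which make a separate ribosome inside mitochondria, had a negative difference in 71 of 78 genes with a median of −0.092, and both Jmjd3-/- arrays lay below both wild-type arrays in 40 of them, 51.3%, against 23.7% of all genes tested. With median scaling that count was 31, 39.7% against 21.2% of all genes tested. With quantile normalisation it was 50, 64.1% against 25.2%. By limma 0 of 78 passed an adjusted p under 0.05, where 0.0368% of all genes tested did, and the smallest adjusted p was 0.330. At an unadjusted p under 0.05 there were 3 (limma), 3.85% of the list against 11.1% of all genes tested. Without Jmjd3-/- replicate 1 the median was −0.027, with 49 of 78 negative, and without replicate 9 it was −0.16. Mrpl19 had levels of 1.90 and 2.05 in Jmjd3-/- and 2.55 and 2.42 in wild-type, a difference of −0.51 (SE 0.099). Mrpl55 had 4.08 and 4.22 against 4.88 and 4.64 (difference −0.61, SE 0.12), and Mrpl32 and Mrps15 differed by −0.30 (SE 0.079) and −0.20 (SE 0.074). In each of these the genotypes did not overlap. Whether the cytosolic and mitochondrial lists differ was not tested.

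Among translation factors and other genes whose mRNAs carry a TOP tract, 13 of 19 tested had a negative difference and the median was −0.017. At an adjusted p under 0.05, 0 passed, where 0.0368% of all genes tested did (limma). At an unadjusted p under 0.05, 0 passed, where 11.1% of all genes tested did (limma). Without Jmjd3-/- replicate 1 the difference was positive in 15 of 19 (median 0.039), without replicate 9 it was negative in 16 (median −0.074), and with quantile normalisation 9 were positive and 9 negative. The elongation factor genes Eef1d and Eef2 differed by −0.10 (SE 0.13) and 0.078 (SE 0.11), and the initiation factor gene Eif4b by −0.057 (SE 0.072). Ribosome assembly genes had a median of −0.029 over 28 tested, 10 positive and 18 negative. Again 0 passed at either threshold (limma), beside the same shares of all genes tested. Polr1a and Polr1b, subunits of the polymerase that transcribes ribosomal RNA, differed by 0.31 (SE 0.12) and 0.21 (SE 0.11), and Ubtf, a factor for the same polymerase, by −0.24 (SE 0.099). In these 3 genes, named for their small p in the list, the genotypes did not overlap. Both Jmjd3-/- arrays lay above both wild-type arrays in 14.3% of the 28 assembly genes, against 23.0% of all genes tested. Both lay below in 21.4%, against 23.7%.

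Targets of p53, which a shortage of ribosomal proteins can activate, had 11 of 20 positive differences with a median of 0.002. Of these 20 genes, 0 passed an adjusted p under 0.05, where 0.0368% of all genes tested did (limma). With median scaling the median was −0.015 and with quantile normalisation −0.010. At an unadjusted p under 0.05 there were 3, of both signs (limma), which is 15.0% of the list against 11.1% of all genes tested. Pmaip1, which encodes a trigger of cell death, had 0.83 and 0.66 in Jmjd3-/- and −0.065 and −0.47 in wild-type (difference 1.02, SE 0.18; adjusted p = 0.325, limma). Btg2, which slows cell division, had 1.20 and 0.68 against 0.026 and 0.15 (difference 0.85, SE 0.21; adjusted p = 0.356, limma). Tnfrsf10b, a death receptor gene, had −3.50 and −4.07 against −2.94 and −3.13, in the opposite direction (difference −0.75, SE 0.23; adjusted p = 0.409, limma). Plk2 differed by −0.33 (SE 0.13).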

How the data were processed

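Feature Extraction 10.7.3.1 from Agilent turned the scans into a spot table, per the file headers. Spot intensities were background-subtracted and detrended by the software before the authors deposited them, with no normalisation between arrays, per the file headers. The deposited table of the series holds log2 values; setting them against the scanner values showed log2 processed signal less the 75th percentile and less the wild-type mean, within 0.01 for 99.9% of probes, and the median of its columns was −0.021 (Jmjd3-/- replicate 1), 0.055 (replicate 9), 0.020 (wild-type replicate 3) and −0.020 (replicate 4). No label states this.

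Control spots (1639 of 45018) were dropped and spots of a probe averaged on the log2 scale. RefSeq (GRCm38.p6) named 26690 probes by accession and 23 by synonym; 14461 stayed unnamed. The headers name another build, so only names and promoter sequences came from it. A gene was tested if, in at least 1 genotype, neither array had its brightest probe below the well-above-background limit. The comparison used limma 3.58.1 under R 4.3.3 (lmFit, eBayes; prior degrees of freedom 1.79), without covariates, with Benjamini-Hochberg adjustment over 13581 genes. The fit was tested on simulated data. Standard errors are moderated, and n = 2 per genotype throughout. An exact permutation test of 2 against 2 cannot go below p = 0.333 and was not used. Jmjd3-/- arrays held the outer places of the slide and wild-type arrays the inner ones, so place and genotype cannot be told apart.

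The members, lists and rules were chosen with earlier results of these data known, so lists are described by counts and medians with no test. Named were members with the 6 largest differences in each direction, the brightest and dimmest, the widest gaps between arrays, paralogs with their parents, Rpl38, Rps19, Rpl5 and Rpl11, Kdm6b, and up to 4 genes by p of each related list. The plot of differences by gene leaves out 1 member, which is not reported here. The promoter windows and the split by scan gain were chosen after the data were seen. The scanner files hold median and not mean spot signals, so the normexp alternative used the median.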

Additional observations from a re-analysis of the deposited data

How the results depend on the processing

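No paired analysis was possible because the genotypes share no replicate number. The count of ribosomal protein genes past the threshold was 0 in the main fit and all 13 alternatives (limma), and their smallest adjusted p ranged from 0.0891 without Jmjd3-/- replicate 9 to 1.0 without a wild-type array. At an unadjusted p under 0.05 there were 11 members without Jmjd3-/- replicate 9, where 29.9% of all genes passed, 1 without replicate 1, and 0 in the other alternatives. The count over all genes, 5, was 0 with quantile normalisation, with no brightness filter and with probes required above background on all 4 arrays, 2 with normexp and 3 with probes averaged per gene; leaving out 1 array gave 0 to 167. The members' median stayed within −0.065 and 0.029 when an array was left out, with either sign, and within −0.035 and −0.001 in the other alternatives. Their Jmjd3-/- gap, 0.112, was 0.198 with median scaling and 0.035 with quantile normalisation. For p53 targets the median was −0.015 with median scaling and −0.014 to 0.037 with an array left out; for ribosome assembly genes the latter range was −0.068 to 0.019, and for mitochondrial ribosomal proteins −0.159 to −0.027. Turned in sign were, with the dimmest probe, Rpl21 (0.038), Rpl22 (0.063), Rpl31 (−0.125), Rpl36a (−0.047) and Rps18 (−0.014); with averaged probes, Rpl22 (0.001); with quantile normalisation, Rpl38 and Rpl7 (both 0.021) and Naca (0.007); with median scaling, Rpl22l1 and Rpl3 (both −0.005); and with normexp, Rpl22l1 (−0.017) and Rps18 (−0.007). With an array left out, Rpl18 ranged from −0.295 to 0.017, Rpl38 from −0.087 to 0.052, Rpl5 from −0.062 to 0.040, Rps4l from −0.292 to 0.179 and Rpl27a from −0.009 to 0.10; the other named genes that changed sign had Rpl3 −0.067 to 0.092, Rpl39 −0.095 to 0.037, Rpl7 −0.044 to 0.032, Rpl7a −0.084 to 0.038, Rplp1 −0.007 to 0.085, Rps18 −0.003 to 0.046, Rps2 −0.013 to 0.07, Rps23 −0.038 to 0.031, Rps4x −0.037 to 0.106, Eef1d −0.252 to 0.044, Eef2 −0.027 to 0.184 and Naca −0.073 to 0.039. The cause was not tested. The number of arrays limits the precision.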

Other observations

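Outside the list, the genes whose profile over the 4 arrays lay nearest to the members' median profile were Lamp1, Setd3, Naca, Rab4b, Chmp4b and Mt4, by Euclidean distance of values centred on the gene's mean. Their distances were 0.004 to 0.011, among 11865 genes with at least the range of the median profile, 0.11. Naca, a chaperone gene for new peptides and a gene of the TOP list, had levels of 7.06 and 7.17 in Jmjd3-/- and 7.14 and 7.12 in wild-type. Likeness over 4 arrays is a description only.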
